A study of Mus musculus with 5 samples.

Results

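The CC chemokines Ccl2, Ccl7, Ccl12, Ccl8, Ccl11, Ccl24, Ccl3, Ccl4, Ccl6 and Ccl9 were followed through 5 single-cell libraries of mouse pancreas and pancreatic tumour. The 10 genes come from a given list whose rule uses no measured value, and all 10 are among the 27998 genes of the count tables. The list was chosen with earlier results of these data known. There is 1 library per group: normal pancreas at 60 days of age, early KIC tumour at 40 days, late KIC tumour at 60 days, late KPfC tumour likewise at 60 days, and late KPC tumour at 6 months. All mice were untreated. Late KPfC came from C57BL/6 mice and the other 4 groups from a mixed background of C57BL/6 and FVB. As these model names are generally used, Cre acts in pancreatic epithelium in all 3 tumour models. KIC includes loss of the Cdkn2a locus, KPfC loss of floxed Trp53, and KPC a point mutation of Trp53. The comparisons ask how each gene's level in macrophages, monocytes, fibroblasts, mesothelial cells and epithelial or tumour cells differed from normal pancreas to early KIC and on to the late tumours.

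CC chemokines are small secreted proteins that bind G protein-coupled receptors on leukocytes and direct their migration. Ccl2, Ccl7, Ccl12 and Ccl8 attract monocytes; Ccl2, Ccl7 and Ccl12 act through Ccr2, which draws monocytes out of the bone marrow. Ccl11 and Ccl24 are eotaxins that attract eosinophils through Ccr3. Ccl3 and Ccl4 are macrophage inflammatory proteins, and Ccl3 binds Ccr1. Ccl6 and Ccl9 are Ccr1 ligands of mouse myeloid cells.

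Counts are unique molecular identifiers (UMIs, 1 per captured transcript). Between 836 and 3529 cells per library were kept, with a median of 1776 to 9331.5 UMIs per cell. Levels are UMIs per 1000000 UMIs of a cell class (CPM), with exact 95% Poisson intervals. With 1 library per group no difference between groups could be tested; intervals and ratios cover counting error only, and a gene is called higher or lower at 2-fold or more. Age, sex and, for late KPfC, strain go with the groups and cannot be told apart from them. Cells with Xist alone and cells with Y-linked transcripts alone numbered 658 and 123 in normal pancreas and 344 and 272 in late KIC, so these 2 libraries hold cells of both sexes, and the other 3 hold almost only 1 kind. Pairs of libraries shared 1 to 17 cell barcodes. Against all clusters, 4 macrophage-like sub-clusters had a monocyte marker and no macrophage marker among their 10 leading genes. Macrophage-like and monocyte-like cells are therefore described together and called macrophages hereafter. They numbered 49, 762, 301, 1754 and 521 cells from normal pancreas to late KPC, and 501 of the 517 monocyte-like cells (sub-cluster M1, led by Plac8 and Ms4a4c) came from late KPfC. Fibroblast-like cells, called fibroblasts, numbered 401, 1300, 48, 112 and 94. All 11 macrophage markers were detected in the macrophages and all 10 fibroblast markers in the fibroblasts of every library. Transcripts of 29 acinar secretory genes, which belong to another cell type, made up 7.41% of macrophage UMIs in normal pancreas and 6.13% in early KIC, and at most 0.0194% in the late tumours.

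Of the 10 genes, 9 lie on chromosome 11 in 2 groups of neighbours (GRCm38). The first spans chr11:82035571-82116799 and holds, in order, Ccl2, Ccl7, Ccl11, Ccl12 and Ccl8, all on the plus strand. The second spans chr11:83572919-83664683 and holds Ccl9, Ccl6 and Ccl3 on the minus strand and Ccl4 on the plus strand. Ccl24 lies apart, at chr5:135569937-135573049 on the minus strand. Ccl2 overlaps Gm17268 and Ccl6 overlaps E230016K23Rik, each on the opposite strand; the sources used here do not say whether counting used strand, and without it the reads of such a pair cannot be told apart. The 250 bases before the start of transcription are shown for 2 pairs from the same locus whose levels went together over cell classes, Ccl12 with Ccl8 and Ccl9 with Ccl6. They are from RefSeq (GRCm38.p6), whose table held 5 of the 10 promoters, and read 5′ to 3′ on the gene's strand. Over 39 pools of 1 library and 1 cell class, Ccl12 and Ccl8 had a Pearson correlation of 0.73 and Ccl9 and Ccl6 of 0.91. The promoter of Ccl3 was also held and is not shown, although Ccl3 and Ccl6 had a correlation of 0.81. Capitals mark motif matches, and positions count back from the start.
Ccl12 (chr11:82101595-82101844, plus strand): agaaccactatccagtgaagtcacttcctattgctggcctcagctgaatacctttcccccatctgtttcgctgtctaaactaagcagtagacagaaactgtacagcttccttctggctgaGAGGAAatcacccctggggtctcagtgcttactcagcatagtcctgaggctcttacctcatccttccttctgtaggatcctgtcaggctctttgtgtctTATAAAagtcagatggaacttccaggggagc
Ccl8 (chr11:82114935-82115184, plus strand): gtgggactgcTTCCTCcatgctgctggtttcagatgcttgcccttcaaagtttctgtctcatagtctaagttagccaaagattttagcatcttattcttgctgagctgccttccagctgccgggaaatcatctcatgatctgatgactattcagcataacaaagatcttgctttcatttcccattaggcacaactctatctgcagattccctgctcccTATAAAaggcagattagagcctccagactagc
Ccl9 (chr11:83578637-83578886, minus strand): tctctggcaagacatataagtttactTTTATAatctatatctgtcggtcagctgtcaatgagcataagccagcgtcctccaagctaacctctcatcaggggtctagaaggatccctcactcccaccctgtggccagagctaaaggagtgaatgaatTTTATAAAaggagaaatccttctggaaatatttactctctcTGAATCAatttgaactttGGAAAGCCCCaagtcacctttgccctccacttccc
Ccl6 (chr11:83593088-83593337, minus strand): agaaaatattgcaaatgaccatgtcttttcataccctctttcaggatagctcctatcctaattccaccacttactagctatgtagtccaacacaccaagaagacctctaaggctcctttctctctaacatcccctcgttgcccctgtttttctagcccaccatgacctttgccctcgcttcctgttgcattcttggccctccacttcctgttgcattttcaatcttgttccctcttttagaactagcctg
The TATA box TATAAA, the PU.1 core GAGGAA, the AP-1 site TGANTCA, the STAT site TTCNNNGAA and the NF-kB site were searched on both strands. Ccl12 and Ccl8 each held TATAAA, at -31 and -32, and GAGGAA, at -130 and, on the minus strand, at -240. Ccl9 held TGAATCA, a match to the pattern TGANTCA, at -53 and an NF-kB match on the minus strand at -35. It also held 3 TATA matches, at -224 and -94 on the minus strand and at -92 on the plus strand, of which those at -94 and -92 overlap. Ccl6 held none of the 5 motifs. Of 32851 promoters of this length, 12.37% held TATAAA, 23.25% GAGGAA, 6.749% TGANTCA, 7.02% TTCNNNGAA and 3.899% the NF-kB site.

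The genes differed in which cells held their UMIs. Ccl12, Ccl24, Ccl3, Ccl4, Ccl6 and Ccl9 were held mostly by macrophages, Ccl11 by fibroblasts, and Ccl2 and Ccl7 by both. Over the 5 libraries macrophages held 67.9% to 100% of the UMIs of the first 6 genes; the lowest share was that of Ccl9 in normal pancreas, where dendritic cells held 22.8%. Fibroblasts held 98.4%, 89.2%, 98.0%, 87.0% and 92.3% of Ccl11 UMIs from normal pancreas to late KPC, the last 2 shares resting on 23 and 26 UMIs. For Ccl2 the fibroblast share was 64.9%, 38.0%, 49.5%, 17.3% and 60.9% and the macrophage share 30.9%, 50.03%, 36.3%, 71.4% and 30.9% in the same order. Ccl8 was held mostly by macrophages in early KIC (84.1%) and late KPfC (94.1%), while the other libraries held only 40, 19 and 3 Ccl8 UMIs in all. These shares depend on how many cells of each class were captured.

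**Figure D1:**
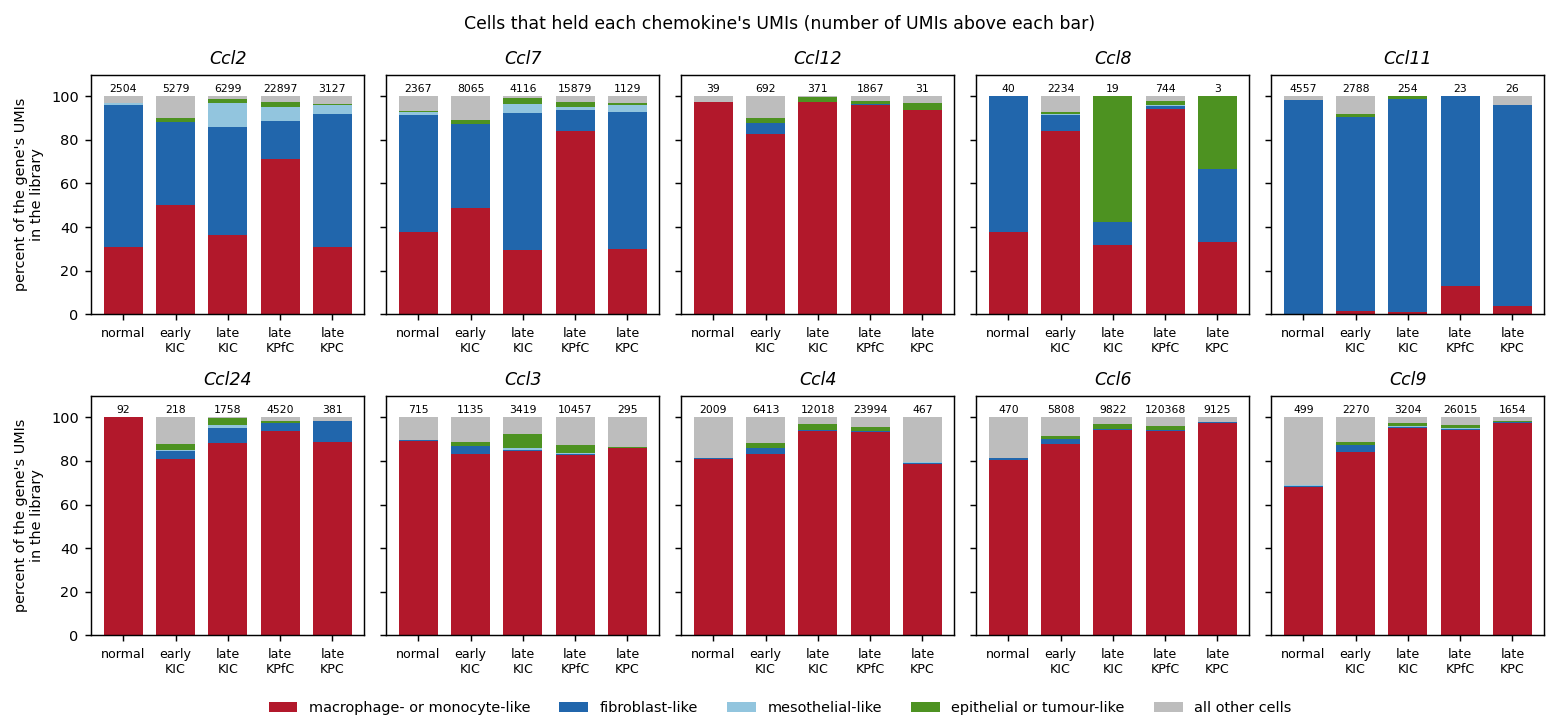
Percent of each gene's UMIs in a library (y axis) held by each cell class, for 5 libraries (x axis), with the gene's UMI total above each bar. Ccl11 is almost all in fibroblasts, the bars of Ccl12, Ccl24, Ccl3, Ccl4, Ccl6 and Ccl9 are mostly macrophage or monocyte, and those of Ccl2 and Ccl7 are divided.

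Ccl2, the main Ccr2 ligand, was lower in macrophages of the tumours than in those of normal pancreas and higher in fibroblasts of the late tumours. In macrophages it stood at 3795 CPM (3532 to 4072) in normal pancreas, 1763 (1696 to 1831) in early KIC, 923 (886 to 962) in late KIC, 1149.8 (1132 to 1168) in late KPfC and 642 (602 to 684) in late KPC. In fibroblasts it stood at 756 CPM (720.0 to 794) in normal pancreas, 799 (764 to 835) in early KIC, 3869 (3735 to 4008) in late KIC, 2518 (2440.2 to 2598) in late KPfC and 4599.9 (4395 to 4811) in late KPC. Normal pancreas was highest and late KPC lowest among the macrophages, and the reverse held among the fibroblasts. In macrophages Ccl2 was 2.15-fold (1.98 to 2.33) lower in early KIC than in normal pancreas and 2.75-fold (2.55 to 2.96) lower in late KPC than in early KIC; late KIC and late KPfC were within 2-fold of early KIC. In fibroblasts early KIC and normal pancreas differed by 1.06-fold (0.989 to 1.13), and late KIC, late KPfC and late KPC exceeded early KIC by 4.84-fold (4.58 to 5.13), 3.15-fold (2.99 to 3.33) and 5.76-fold (5.40 to 6.13). The share of fibroblasts with a Ccl2 UMI, with each cell thinned to 1000 UMIs, was 13.2%, 26.6%, 66.7%, 69.6% and 71.3%; unthinned it was 23.4%, 35.5%, 81.2%, 96.4% and 78.7%. Median depth per fibroblast was 5147, 1712.5, 14857.5, 12571.5 and 3191 UMIs. Without sub-clusters S9 and S14, which carried mesothelial genes, fibroblasts held 1688 CPM in late KPfC (23 cells) and 4726 in late KPC.

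Mesothelial cells, which line the organ surface, held 111 CPM of Ccl2 in normal pancreas and 75.9 in early KIC (sub-cluster S11), and 1188 in late KIC and 1649 in late KPfC (sub-cluster S6). Against all clusters S6 had 3 fibroblast markers and no mesothelial marker among its 10 leading genes, so no ratio between S11 and S6 is given. Against the other fibroblast and mesothelial sub-clusters its leading genes included the mesothelial markers Msln, Upk3b, Nkain4 and Upk1b. Ccl7 in these pools was 148, 142, 279.8 and 283 CPM. Epithelial or tumour cells held 113 CPM of Ccl2 in early KIC, 18.1 in late KIC, 80.1 in late KPfC and 27.5 in late KPC. T or NK cells, which should lack the gene, held 115, 35.6, 23.1 and 28.2 CPM in these libraries, on 8, 10, 4 and 3 UMIs. Only the late KPfC epithelial level stood above them, and with so few UMIs the early KIC level is not settled by this reference. In early KIC 356 epithelial or tumour cells held 100 Ccl2 UMIs and 441 acinar cells 75. In late KPfC 1 epithelial or tumour cell held 101 of the 531 Ccl2 UMIs.

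Ccl7, a ligand of Ccr2 and other receptors and the neighbour of Ccl2, had the same order of libraries in macrophages as Ccl2. Macrophages held 4384 CPM (4101 to 4682) in normal pancreas, 2625 (2543 to 2708) in early KIC, 487 (459.5 to 515) in late KIC, 939 (923 to 955) in late KPfC and 224 (200.5 to 249) in late KPC. All 3 late tumours lay below early KIC, by 5.39-fold (5.06 to 5.76), 2.79-fold (2.70 to 2.90) and 11.7-fold (10.5 to 13.2). Fibroblasts held 592 CPM (559.6 to 625) in normal pancreas, 1237 (1194 to 1281) in early KIC, 3221 (3098 to 3347) in late KIC, 960.4 (913 to 1010.1) in late KPfC and 1721 (1597 to 1852) in late KPC. Late KIC was highest and normal pancreas lowest. Early KIC exceeded normal pancreas by 2.09-fold (1.96 to 2.23) and late KIC exceeded early KIC by 2.60-fold (2.47 to 2.74), whereas late KPfC and late KPC were within 2-fold of early KIC. The excess of late KIC was under 2-fold, with a lowest log2 ratio of 0.69, after a stricter cell filter and when libraries were clustered separately.

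Ccl12, another Ccr2 ligand of the locus, was found in macrophages and hardly elsewhere. Its macrophage level was 187 CPM (132 to 256) in normal pancreas, 382 (351 to 414) in early KIC, 146 (131 to 161) in late KIC, 126 (120.1 to 132) in late KPfC and 19.3 (12.9 to 27.7) in late KPC. Early KIC was highest and late KPC lowest. Early KIC exceeded normal pancreas by 2.05-fold (1.47 to 2.92), just past the 2-fold limit; over 10 other settings its log2 ratio ran from 0.88 to 2.17 and 4 of them, with other totals, another scaling or fewer cells, fell under 2-fold. In contrast, late KIC, late KPfC and late KPC were 2.62-fold (2.29 to 2.998), 3.03-fold (2.76 to 3.33) and 19.8-fold (13.7 to 29.9) below early KIC. The tenth of macrophages with most Ccl12 UMIs held 81.5% of them in early KIC. Fibroblasts had no Ccl12 UMI in normal pancreas, late KIC and late KPC, where a count of 0 allows up to 1.40, 3.72 and 7.25 CPM. In fibroblasts of early KIC it stood at 13.5 CPM, beside 12.9 in acinar cells of that library.

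Ccl8, a monocyte chemoattractant, was largely an early KIC transcript. In macrophages it stood at 73.6 CPM (41.2 to 121) in normal pancreas, 1254 (1198 to 1312) in early KIC, 2.42 (0.888 to 5.27) in late KIC, 49.2 (45.7 to 53.0) in late KPfC and 0.664 (0.0168 to 3.70) in late KPC. Early KIC was 17.0-fold (10.3 to 30.5) above normal pancreas, on 1879 against 15 UMIs. It was 518-fold (238 to 1413) above late KIC and 25.5-fold (23.3 to 27.8) above late KPfC. In late KPC macrophages 1 Ccl8 UMI was counted, which gives a ratio of 1889-fold (339 to 74645). In late KPfC 1 cell held 231 of the 700 UMIs. The share of macrophages with a Ccl8 UMI, thinned, was 4.08%, 21.9%, 0.664%, 1.82% and 0.209%. Fibroblasts were also highest in early KIC, at 66.5 CPM (56.8 to 77.4), against 11.6 (7.53 to 17.2) in normal pancreas. That level lay between those of acinar cells (33.1 CPM) and endothelial cells (90.6 CPM) of early KIC.

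Ccl11, the eotaxin of fibroblasts, was lower in every tumour than in normal pancreas. In fibroblasts it stood at 2085 CPM (2024 to 2147) in normal pancreas, 991 (952 to 1031) in early KIC, 309 (272 to 349.5) in late KIC, 12.7 (7.77 to 19.6) in late KPfC and 58.0 (37.2 to 86.3) in late KPC. No pair of these intervals overlapped. Early KIC was 2.104-fold (2.003 to 2.21) below normal pancreas, and late KIC, late KPfC and late KPC were 3.21-fold (2.82 to 3.67), 77.9-fold (50.3 to 128) and 17.1-fold (11.5 to 26.7) below early KIC. Thinned to 1000 UMIs, 69.1%, 50.6%, 22.9%, 0.893% and 6.90% of fibroblasts had a Ccl11 UMI. In late KPfC 89 of the fibroblasts belonged to sub-cluster S9 and in late KPC 43 to S14, which share the leading gene Slpi with the mesothelial sub-clusters S6 and S11; summed mesothelial markers in all fibroblasts were 195, 170.1, 290.1, 632 and 515 CPM. S9 and S14 held 0.814 CPM of Ccl11 in late KPfC and none in late KPC. The other fibroblasts held 55.4 CPM in late KPfC, on 23 cells, and 131 in late KPC, both below early KIC. Macrophages of early KIC held 35 Ccl11 UMIs or 23.4 CPM, below the 41.4 CPM of acinar cells there.

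Ccl24, the other eotaxin, was a macrophage transcript in every library and was also counted in fibroblasts of the late tumours. In macrophages it stood at 452 CPM (364 to 554) in normal pancreas, 117 (101 to 136) in early KIC, 626 (595 to 658) in late KIC, 297 (289 to 307) in late KPfC and 224 (201 to 249.6) in late KPC. Early KIC was lowest. It was 3.85-fold (2.96 to 4.98) below normal pancreas, and late KIC, late KPfC and late KPC exceeded it by 5.33-fold (4.56 to 6.27), 2.53-fold (2.18 to 2.96) and 1.91-fold (1.59 to 2.31). In fibroblasts no UMI was counted in normal pancreas (up to 1.40 CPM) and 8 in early KIC, at 3.19 CPM (1.38 to 6.28). Fibroblasts held 145 CPM (120.0 to 174) in late KIC, 106 (90.1 to 123) in late KPfC and 87.0 (60.9 to 120.5) in late KPC, or 45.5-fold (22.4 to 108), 33.1-fold (16.4 to 78.0) and 27.3-fold (12.5 to 68.0) the level of early KIC. Epithelial or tumour cells of these 3 libraries held 7.52, 8.00 and 0 CPM. In late KIC 1 fibroblast held 50 of the 117 UMIs. The part of macrophage RNA in these values was not tested: 9 to 11 of the 11 macrophage markers were detected in fibroblasts, with sums of 1881, 3259, 1925, 2106 and 1242 CPM, and Adgre1 and Ms4a7 were at 0 in late KIC and late KPC. In late KPfC sub-cluster S9 held 130.2 CPM of Ccl24 and the other 23 fibroblasts 17.5.

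Ccl3 and Ccl4, the neighbouring genes of the macrophage inflammatory proteins, were both highest in macrophages of normal pancreas and lowest in those of late KPC. Ccl3 stood at 3123 CPM (2885 to 3375) in normal pancreas, 631 (592 to 673) in early KIC, 1166 (1124 to 1209) in late KIC, 609 (597 to 622) in late KPfC and 168 (148 to 190.0) in late KPC. Ccl4 stood at 7988 CPM (7605 to 8386) in normal pancreas, 3554 (3459 to 3651) in early KIC, 4547 (4463 to 4631) in late KIC, 1573 (1553 to 1594) in late KPfC and 244 (220.0 to 271) in late KPC. Early KIC lay below normal pancreas by 4.95-fold (4.47 to 5.47) for Ccl3 and 2.25-fold (2.13 to 2.38) for Ccl4. Late KPC lay below early KIC by 3.76-fold (3.27 to 4.34) and 14.5-fold (13.1 to 16.2). Late KPfC was below it for Ccl4 alone, by 2.26-fold (2.19 to 2.33), and late KIC was within 2-fold of early KIC for both. Neutrophils also held Ccl3, at 1533 CPM in late KIC, 1519 in late KPfC and 239.7 in late KPC. These levels rest on 136 UMIs in 15 cells, 760 in 115 cells and 22 in 71 cells.

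Macrophages of normal pancreas also held more transcripts of genes that respond to tissue dissociation. Of 13 such genes, 9 were lower and 0 higher in early KIC, against 6.14% and 17.0% of all genes tested, with a median log2 ratio of -1.15 against 0.15 over all genes. Jun, a subunit of AP-1, was 3.82-fold (3.16 to 4.61) lower and the phosphatase gene Dusp1 2.82-fold (2.46 to 3.22) lower. The list summed to 11356, 5655, 5117, 6603 and 4522 CPM from normal pancreas to late KPC. Its part in the levels of Ccl2, Ccl3, Ccl4 and Ccl24 was not tested. Of 12 inflammatory cytokine genes in the same comparison, 2 were higher and 2 lower, the higher ones at the 17.0% of all genes and the lower ones above the 6.14%; Tnf was 2.94-fold (2.41 to 3.58) lower and Il6 4.24-fold (2.20 to 9.38) higher.

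The Ccl6 level in macrophages of all 4 tumours lay above that of normal pancreas, by 2-fold or more in the late tumours alone, and Ccl9 differed little. Ccl6 stood at 1856 CPM (1673 to 2053) in normal pancreas, 3398 (3306 to 3493) in early KIC, 3742 (3666 to 3819) in late KIC, 7928 (7882 to 7975) in late KPfC and 5915 (5792 to 6039) in late KPC. Late KPfC was highest and exceeded early KIC by 2.33-fold (2.27 to 2.40) and normal pancreas by 4.27-fold (3.86 to 4.74); early KIC was within 2-fold of normal pancreas. Ccl9 stood at 1664 CPM (1492 to 1851) in normal pancreas, 1277 (1221 to 1336) in early KIC, 1229.8 (1187 to 1274) in late KIC, 1723 (1702 to 1745) in late KPfC and 1069 (1017 to 1122) in late KPC. No library differed from early KIC by 2-fold, and the intervals of early and late KIC overlapped, as did those of normal pancreas and late KPfC. Thinned, 65.3% to 91.2% of macrophages had a Ccl6 UMI and 52.8% to 73.5% a Ccl9 UMI. Ccl6 was also held by neutrophils, at 4268 CPM in late KPfC.

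**Figure D2:**
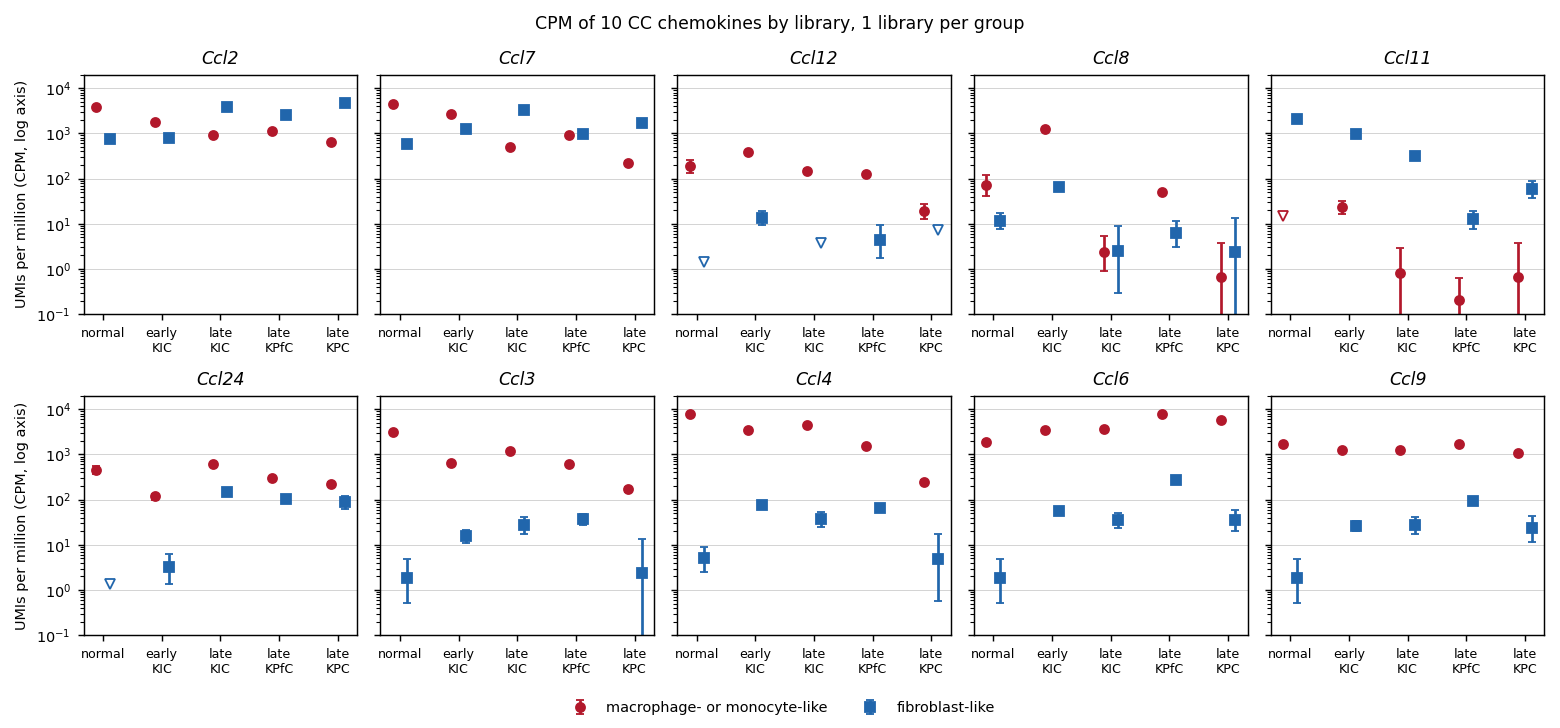
CPM on a log axis (y) in 5 libraries (x) for macrophages and monocytes (red circles) and fibroblasts (blue squares); bars are exact 95% Poisson intervals and open triangles mark the level of 3 counts where none was seen. Ccl2 is highest in normal pancreas in red and in late KPC in blue, Ccl11 in blue is highest in normal pancreas, and Ccl8 in red peaks in early KIC.

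In fibroblasts Ccl3, Ccl4, Ccl6 and Ccl12 were not separated from the level of other cells of the library. In none of the 5 libraries did their fibroblast interval lie above that of epithelial or tumour cells or, where present, acinar cells. Fibroblasts of early KIC held 15.5, 75.7, 55.0 and 13.5 CPM of these genes and acinar cells 18.4, 92.1, 65.4 and 12.9. In late KPfC fibroblasts held 36.9 CPM of Ccl3 and 272 of Ccl6, beside 54.8 and 317 in epithelial or tumour cells. Ccl9 was at that level in early KIC (25.9 CPM, with 25.8 in acinar cells) but not in every library. In late KIC fibroblasts it stood at 27.3 CPM (17.1 to 41.3), above the 7.13 (5.35 to 9.30) of epithelial or tumour cells and near the 24.9 of T or NK cells. In late KPfC it stood at 95.4 CPM (80.7 to 112), above the 68.8 (62.6 to 75.4) of epithelial or tumour cells and below the 150.2 of T or NK cells. The part of background RNA in these fibroblast values was not tested.

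Counted over the 10 genes, more members were lower than higher in macrophages in each comparison. In early KIC against normal pancreas 2 were higher, against 17.0% of all genes tested, and 4 lower, against 6.14%. Against early KIC, late KIC had 1 higher (10.5%) and 4 lower (8.48%), and late KPfC 2 higher (12.4%) and 5 lower (8.29%). Late KPC had 0 higher (16.6%) and 7 lower (11.6%), with a median log2 ratio of -2.73 against 0.21 over all genes. The lower members make up a larger share than the background in these 4 comparisons, and the higher members lie near it or below it except in late KPfC. Ccl7, Ccl12, Ccl8 and Ccl11 were lower in all 3 late tumours, Ccl11 from a level under that of acinar cells, and without it 3, 4 and 6 members were lower. The 3 late comparisons share the early KIC library.

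In fibroblasts 7 of the 9 members tested were higher in early KIC than in normal pancreas (7.42% of genes) and 1, Ccl11, was lower (4.65%). Of the 7, Ccl3, Ccl4, Ccl6, Ccl9 and Ccl12 were not above the epithelial, tumour or acinar cells of early KIC, Ccl8 lay within the range of other cells, and Ccl7 stood above the 139 CPM of acinar cells. Against early KIC, late KIC had 3 higher (6.93%), namely Ccl2, Ccl7 and Ccl24, and 4 lower (19.2%). Late KPfC had 5 higher (12.3%), of which Ccl3 and Ccl6 were not above epithelial or tumour cells, and 3 lower (14.6%). Late KPC had 2 higher (10.8%), Ccl2 and Ccl24, and 4 lower (23.1%). The members lower in late KIC were Ccl11, Ccl8, Ccl12 and Ccl4, those lower in late KPfC Ccl11, Ccl8 and Ccl12, and those lower in late KPC Ccl11, Ccl8, Ccl3 and Ccl4. Of these, only Ccl11 and Ccl8 stood above epithelial, tumour and acinar cells in early KIC, and Ccl8 was not above endothelial cells there. The shares of all genes carry no such condition, so these 2 members cannot be set beside them. Against normal pancreas Ccl2 was 5.12-fold (4.82 to 5.44) higher in late KIC, 3.33-fold (3.14 to 3.53) in late KPfC and 6.08-fold (5.69 to 6.50) in late KPC fibroblasts, and Ccl11 6.75-fold (5.94 to 7.70), 164-fold (106 to 269) and 35.9-fold (24.1 to 56.2) lower. Over all genes the median log2 ratio against early KIC was -0.22 in late KIC and -0.23 in late KPC fibroblasts.

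**Figure D3:**
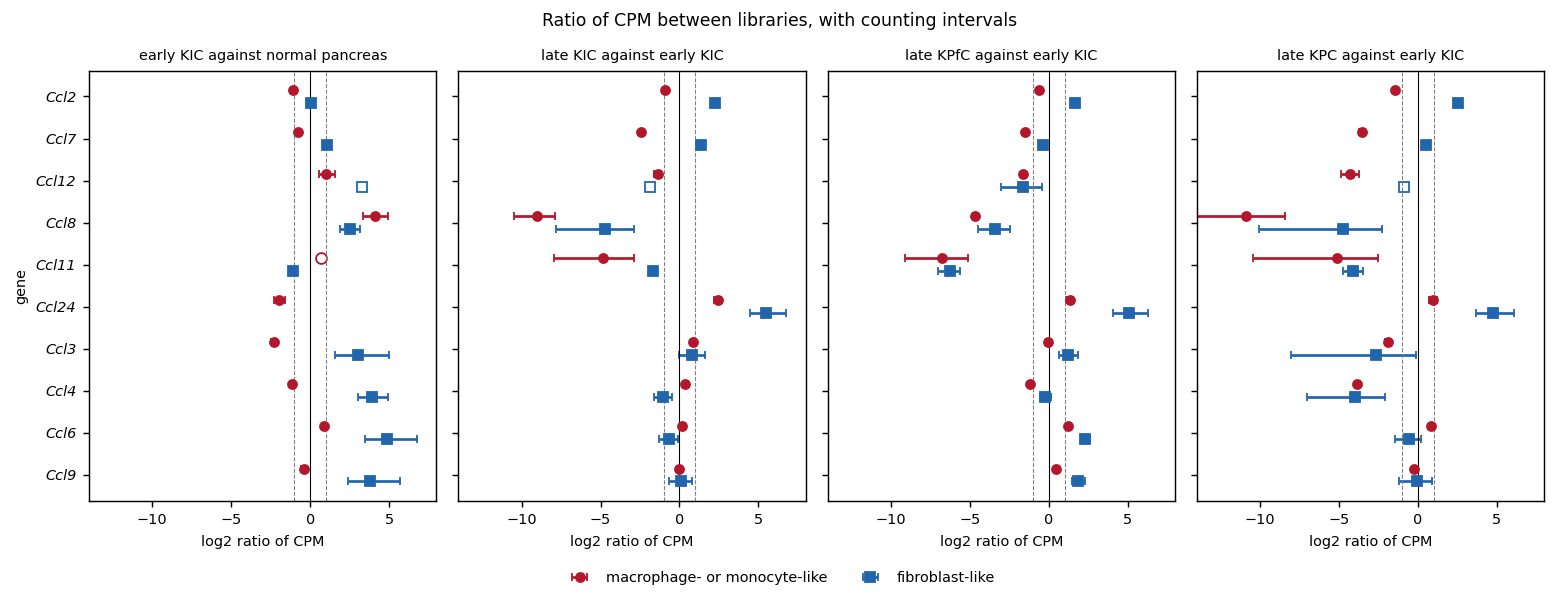
Log2 ratio of CPM (x axis) for each gene (y axis) in 4 comparisons; red circles are macrophages and monocytes, blue squares fibroblasts, bars exact 95% intervals, dashed lines 2-fold, and open symbols ratios taken against 3 counts. In the 3 late comparisons Ccl7, Ccl12 and Ccl8 lie left of the 2-fold line in red, and Ccl2 and Ccl24 lie right of it in blue.

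Within the macrophages of early KIC, 4 genes of the first locus were concentrated in sub-cluster M6, led by Retnla, Cd209f, Pf4 and F13a1 and also by Folr2 and Cbr2. CC chemokines had been left out of the genes used for clustering. M6 held 194 cells of early KIC, 24 of the 49 macrophages of normal pancreas and none of the late tumours. Its early KIC cells held 5277 CPM of Ccl2, 8558 of Ccl7, 1300.3 of Ccl12 and 5508 of Ccl8. Sub-cluster M3, with 475 cells of early KIC, held 781, 930.2, 103 and 43.0 CPM. Ccl6 stood at 4062 and 3578 CPM in M6 and M3 and Ccl9 at 1345 and 1372 in the same order. From the second locus Ccl4 (8672 against 2025 CPM) and Ccl3 (1300.3 against 352) were also higher in M6 than in M3. Of the smaller sub-clusters of early KIC, M9 (62 cells) held 1941 CPM of Ccl6 and 559 of Ccl8. M11 (25 cells) held 240.0 CPM of Ccl6 and no Ccl8, and its Ccl3 level of 2181.9 CPM was above that of M6. In the M6 cells of normal pancreas Ccl2 stood at 7084 (6543 to 7658) and Ccl7 at 8068 (7490.2 to 8679.5) CPM. They held 157 (85.7 to 263) CPM of Ccl8, far below M6 of early KIC, and more Ccl24 (962 against 225 CPM) and Ccl3 (4118 against 1300.3).

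A list of tissue-resident macrophage genes, 10 of them in the count tables, was lower in the late tumours together with Ccl7, Ccl12 and Ccl8. Of these 10 genes, 8 were lower and 0 higher than in early KIC in each late tumour, where 8.48%, 8.29% and 11.6% of all genes were lower in late KIC, late KPfC and late KPC. The list had median log2 ratios of -2.93 in late KIC, -1.38 in late KPfC and -3.61 in late KPC, against 0.08, 0.08 and 0.21 over all genes. Folr2, a folate receptor, was 12.98-fold (9.71 to 17.7) lower in late KIC and 58.6-fold (28.2 to 147) lower in late KPC. The list summed to 13727, 5074, 1232, 1589 and 1204 CPM from normal pancreas to late KPC, and its part in the chemokine levels was not tested. In late KPfC the highest levels of Ccl2, Ccl7, Ccl12 and Ccl8 were in sub-cluster M0 (550 cells, led by Marco, Cd5l and Saa3), at 1839.6, 1831, 219.8 and 128 CPM. Sub-cluster M2 (465 cells) held 249, 169, 69.0 and 5.64 CPM. The monocyte-like M1 lay between them for Ccl2 and Ccl7, at 1464 and 869.6 CPM, and was highest for Ccl9, at 2368 CPM.

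Fibroblasts also differed among themselves. Ccl11 stood at 3159 CPM in sub-cluster S4 (163 cells) and 1576 in S3 (221 cells) of normal pancreas, and ranged from 142 CPM in S5 (109 cells) to 1728 in S0 (360 cells) in early KIC. Sub-cluster S8, found in the late tumours, held 4815 CPM of Ccl2 and 4391 of Ccl7 in 35 cells of late KIC, and 7118 and 3849.6 in 38 cells of late KPC. The same cells held 417 and 258 CPM of Ccl11 and 200.3 and 129 of Ccl24. Among fibroblast sub-clusters of early KIC the highest Ccl2 level was 1228 CPM in S2 (286 cells), below both S8 values.

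**Figure D4:**
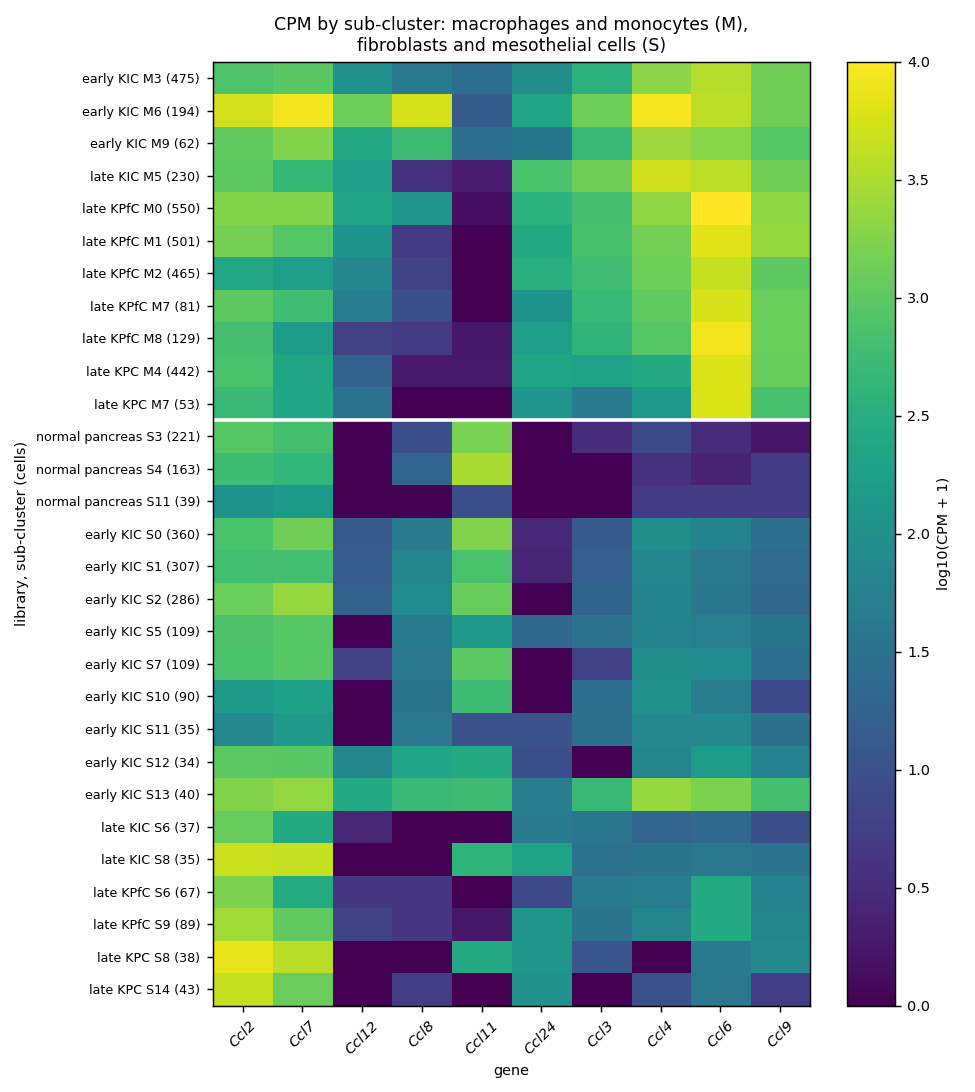
Colour gives log10(CPM + 1) of 10 genes (x axis) in 29 pools of 1 library and 1 sub-cluster with at least 30 cells (y axis, cells in brackets), 11 of macrophages and monocytes above the white line and 18 of fibroblasts and mesothelial cells below it; S13 carried macrophage genes and stayed unnamed. M6 of early KIC is bright for Ccl2, Ccl7, Ccl12 and Ccl8, and Ccl11 is bright in fibroblasts of normal pancreas and early KIC.

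Ccl7 was counted in a larger share of cells with Ccl2 than of cells without it, in macrophages and in fibroblasts of all 5 libraries, with intervals that overlapped in fibroblasts of late KPfC alone. With every cell thinned to 1000 UMIs, Ccl7 was found in 73.8% (251 of 340, exact 95% interval 68.8% to 78.4%) of the macrophages of early KIC with Ccl2, and in 24.2% (20.2% to 28.5%) of those without it. The shares were 46.3% and 5.94% in late KIC and 27.1% and 5.01% in late KPC. Fibroblasts gave 43.4% and 14.7% in normal pancreas and 77.4% and 16.0% in late KPC. Ccl4 was found in 75.7% (181 of 239, exact 95% interval 69.8% to 81.0%) of early KIC macrophages with Ccl3 and in 35.6% (31.5% to 39.8%) of those without it. Ccl12 was found in 37.1% (62 of 167, exact 95% interval 29.8% to 44.9%) of early KIC macrophages with Ccl8 and in 11.4% (8.98% to 14.3%) of those without it. Ccl12 was also found in 31.8% of early KIC macrophages with Ccl2 and in 5.21% of those without it. For Ccl12 with and without Ccl7 the shares were 30.9% and 5.13%, and for Ccl3 with and without Ccl2 45.6% and 19.9%. The intervals of these pairs did not overlap in early KIC macrophages, but did in those of normal pancreas and late KIC. In some libraries a pair had a lower share, with intervals that overlapped. Ccl24 was found in 3.12% (1 of 32, exact 95% interval 0.0791% to 16.2%) of late KPfC macrophages with Ccl8 and in 13.01% (11.5% to 14.7%) of those without it. For the same pair in early KIC macrophages the shares were 11.4% (6.99% to 17.2%) and 5.88% (4.13% to 8.09%). In late KPfC fibroblasts 0 of 28 cells with Ccl6 (exact 95% interval up to 12.3%) had Ccl9, against 10.7% (5.02% to 19.4%) of those without it. For the same pair in late KPfC macrophages the shares were 72.5% (70.2% to 74.7%) and 32.9% (25.6% to 40.9%). Macrophages with Ccl6 had the larger share with Ccl9 in all 5 libraries, with intervals that overlapped in normal pancreas alone. These intervals cover the sampling of cells within 1 library.

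The genes closest to each member were found by the correlation of log2(CPM + 10) over 39 pools of 1 library and 1 cell class, among 10788 genes. The pools share libraries, depth and background RNA, and the correlations are a description. Ccl2 was closest to the neutrophil chemoattractant Cxcl1 (0.93), Ccl7 (0.91) and Lgmn (0.86), and Ccl7 to Ccl2 (0.91), Cxcl1 (0.87) and Rcan1 (0.83). Ccl12 was closest to the complement gene C1qc (0.92), Pf4 (0.92) and Retnla (0.91), and Ccl8 to Ms4a7 (0.79), Fcrls (0.77) and Retnla (0.76). Ccl11 was closest to Dpep1 (0.97), Pi15 (0.95) and the matrix gene Dpt (0.93), and Ccl24 to Npl (0.84), the scavenger receptor Msr1 (0.81) and Myo7a (0.80). Ccl3 was closest to the Fc receptor Fcgr3 (0.87), Tnf (0.87) and Ccrl2 (0.87), and Ccl4 to Gm6377 (0.87), Ccl9 (0.86) and Lyz2 (0.86). Ccl6 was closest to the lysozyme gene Lyz2 (0.96), Nlrp3 (0.96) and Fcgr3 (0.94), and Ccl9 to Cd68 (0.95), Wfdc17 (0.94) and Cfp (0.93).

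Of 9 chemokine receptor genes, 4 held enough UMIs in macrophages for a ratio. Ccr2, the receptor of Ccl2, Ccl7 and Ccl12, stood at 29.5, 127, 72.6, 170.5 and 104 CPM from normal pancreas to late KPC, and was 4.33-fold (1.95 to 11.9) higher in early KIC than in normal pancreas, on 191 against 6 UMIs. Ccr1, the receptor of Ccl3, Ccl6 and Ccl9, stood at 177, 186, 255, 173 and 305 CPM, and no late tumour differed from early KIC by 2-fold. Ccrl2, an atypical receptor, was 2.81-fold (2.48 to 3.20) lower in late KPC than in early KIC. Of the other CC chemokines, Ccl17, a Ccr4 ligand, was at least 7.52-fold higher in macrophages of early KIC than of normal pancreas, where none was counted. It was a further 4.47-fold (3.80 to 5.29) higher in late KIC and 8.27-fold (7.09 to 9.69) higher in late KPfC than in early KIC, and in late KPC it stood at 123 CPM, beside 111 in early KIC. In late KPC, 2 of the 4 other CC chemokines with a ratio were lower than in early KIC and none higher. Ccl5, which attracts T cells, was 28.5-fold (17.4 to 50.3) lower there, and Ccl22, another Ccr4 ligand, 11.1-fold (2.72 to 97.0) lower, on 2 against 22 UMIs.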

How the data were processed

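The deposited files hold raw UMI counts per gene and cell barcode. Cell Ranger 2.1.1 and the build GRCm38 are named in the submitters' processing notes, and the libraries are 10x 3' v2 per the labels' protocols; the sources used here give no annotation release or sequencing saturation. Barcodes needed 200 genes, 500 UMIs and no more than 20% mitochondrial UMIs; libraries held 3488871 to 26749820 UMIs. No doublet caller was run. Cells were clustered on 2000 variable genes without CC chemokines (30 principal components, 15 neighbours, Leiden resolution 1; Python 3.11.15, scanpy 1.11.5, leidenalg 0.10.2), and the myeloid and stromal cells again. Clusters were named from listed markers; the naming rule was revised after clusters had been seen, and monocyte-like cells were then pooled with macrophages. UMIs were summed per library and class. Ratios carry exact binomial 95% intervals and needed 30 cells on each side and 20 UMIs together; a count of 0 was set to 3. Shares carry Clopper-Pearson intervals. The scripts were tested on simulated data. Named are all members, the 3 genes most alike to each (Pearson, genes with 200 UMIs or more) and up to 4 list genes past 2-fold per comparison; Ccr1, S8, M0 and other sub-clusters were singled out after their values were seen. Members and lists were chosen with earlier results of these data known. Some genes are not reported here. The alternatives tried are in the closing section.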

Additional observations from a re-analysis of the deposited data

Results flagged for a closer look

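In 4 cases a gene was at least 2-fold higher in one of the 2 cell classes and at least 2-fold lower in the other between the same libraries. With 1 library per group the difference between the classes was not tested. In early KIC against normal pancreas the log2 ratio of Ccl3 was -2.31 in macrophage- or monocyte-like cells and 3.06 in fibroblast-like cells, and that of Ccl4 was -1.17 and 3.89. The fibroblast levels of both genes in early KIC, 15.5 and 75.7 CPM, were below those of acinar cells of the same library (18.4 and 92.1 CPM). In late KIC against early KIC Ccl7 had a log2 ratio of -2.43 in macrophages and 1.38 in fibroblasts; the fibroblast value was under 2-fold in 2 alternative settings. In late KPC against early KIC Ccl2 had -1.46 and 2.53.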

How the results depend on the processing

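Of 574 recomputed ratios that were past 2-fold in the report, over 10 alternatives and 2 chosen after seeing the data (without sub-clusters S9 and S14, and without M1), 563 stayed past 2-fold, 10 came under 2-fold and 1 turned. The one that turned was Ccl12 in fibroblasts of late KPfC against early KIC, with a log2 ratio of 0.29 after thinning to 1000 UMIs per cell. Ccl12 in macrophages of early KIC against normal pancreas ranged from 0.88 to 2.17 (log2) and was past 2-fold in 6 of 10 alternatives. The number of members higher in macrophages of early KIC was therefore 1 in place of 2 with totals without acinar, haemoglobin and mitochondrial genes, with ratios divided by the median of all genes, without the 5% of cells with most UMIs and without M1. With each library clustered on its own, 2 members in place of 1 were higher in macrophages of late KIC and 1 in place of 0 in those of late KPC against early KIC, and early KIC against normal pancreas gave no value, since no cluster of normal pancreas could be named macrophage. After thinning, members lower in fibroblasts of early KIC were 0 in place of 1, those lower in late KIC 2 in place of 4 and those higher in late KPC 1 in place of 2; among these, Ccl11 in early KIC stood at -0.96 (log2), just under 2-fold. Ccl7 in fibroblasts of late KIC against early KIC ranged from 0.69 to 1.63 and was under 2-fold after a stricter cell filter and when libraries were clustered separately, and Ccl4 there ranged from -1.44 to -0.80. Ccl8 there had no UMI left in late KIC after thinning, so that its log2 ratio, -4.75 before, was 0 and has no direction. The causes were not tested. Without S9 and S14 late KPfC held 23 fibroblasts, too few for a ratio. Depth limits the precision where few UMIs were counted, as for Ccl8 in macrophages of late KPC (1 UMI). No paired analysis was possible because each group has 1 library; no library could be left out.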
